A study of Homo sapiens with 6 samples.

Results

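The clustered protocadherins are cell surface adhesion receptors encoded side by side on chromosome 5. They were taken from the deposited table by symbol and chromosome, which gave 54 of its 61806 genes: 16 of the alpha class (PCDHA and PCDHAC genes), 16 of the beta class (PCDHB genes) and 22 of the gamma class (PCDHGA, PCDHGB and PCDHGC genes). Their levels were compared by RNA sequencing between 2 groups of wild-type HFF cells, a banked culture of human foreskin fibroblasts. Both groups were irradiated with 40 mJ/cm2 of ultraviolet B light (UVB). The UVB group (3 libraries) was then kept for 48 h in medium with vehicle, and the UVB + sauchinone group (3 libraries) in medium with 10 µM sauchinone, a plant lignan. The labels' protocols also describe a version with 4 h of sauchinone before irradiation and do not say which version these libraries came from. The control cells were therefore themselves irradiated, and unirradiated cells were not analysed here. Whether the replicates were separate cultures is not stated, so each p-value reflects the scatter of these 6 libraries, part or all of which may be technical.

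Protocadherins of these classes bind like molecules on a neighbouring cell, and they are best known from the nervous system, where each neuron displays its own combination of them. Each alpha and gamma gene has its own promoter and a large first exon that encodes the outer part of the receptor, and this exon is spliced to a few exons that all genes of the class share and that encode the inner part. Beta genes encode the whole receptor in a single coding exon and have no shared inner part. Promoter choice in the cluster is known to involve DNA methylation, the insulator protein CTCF and cohesin, which bring a promoter next to distant enhancers.

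The promoters of the 3 classes carry different short boxes, which are shown because alpha, beta and gamma genes are described apart below. RefSeq promoters (GRCh38.p14) were matched by symbol for 47 of the 54 genes. PCDHA3, PCDHA13, PCDHA14, PCDHB6, PCDHB11, PCDHGA12 and PCDHGC5 had no entry. In the 250 bases before the gene start, searched on both strands, GATGTCGCT stood in 9 of 13 alpha promoters and in 0 of 14 beta and 0 of 20 gamma promoters, against 0.0854% of all 35116 promoters in the table. GGTGGCGCT stood in 12 of 14 beta promoters (not PCDHB1 or PCDHB8), in 0 of 13 alpha and 0 of 20 gamma promoters, and in 0.410% of all promoters. GNCGCTGT, which overlaps the alpha box where that box is followed by GT, stood in 17 of 20 gamma promoters (not PCDHGA11, PCDHGB3 or PCDHGB7), in 5 of 13 alpha promoters, in 1 of 14 beta promoters and in 3.34% of all promoters. The letters CGCT, common to the 3 boxes, stood in 12 of 13 alpha, 13 of 14 beta and 20 of 20 gamma promoters and in 64.8% of all promoters. The boxes were spelled after these promoters had been read, and a match describes the letters in the window, not a bound site.

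Each window below runs 5′ to 3′ on the + strand, and capitals mark the box. The alpha windows come from chr5:140806965-140807018, chr5:140827883-140827936 and chr5:140875230-140875283, in the order printed.
PCDHA4: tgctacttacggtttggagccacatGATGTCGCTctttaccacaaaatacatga
PCDHA6: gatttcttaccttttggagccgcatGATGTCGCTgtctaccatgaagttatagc
PCDHA12: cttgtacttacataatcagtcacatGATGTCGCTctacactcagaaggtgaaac

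The beta windows include the 5 genes that were lower with sauchinone and PCDHB16, which did not pass the test. They come from chr5:141094530-141094583, chr5:141135165-141135205, chr5:141172552-141172605, chr5:141187060-141187113, chr5:141223249-141223302 and chr5:141182296-141182349. The box started between 16 and 76 bases before the RefSeq gene start in these 6 genes.
PCDHB2: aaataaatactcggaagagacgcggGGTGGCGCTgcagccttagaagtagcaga
PCDHB5: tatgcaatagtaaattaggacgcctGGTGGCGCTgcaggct
PCDHB7: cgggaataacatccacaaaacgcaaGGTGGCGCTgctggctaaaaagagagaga
PCDHB9: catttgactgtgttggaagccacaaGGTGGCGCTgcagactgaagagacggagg
PCDHB14: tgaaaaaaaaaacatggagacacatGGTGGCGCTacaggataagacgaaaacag
PCDHB16: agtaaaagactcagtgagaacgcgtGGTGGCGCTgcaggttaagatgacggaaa

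The gamma windows include the 5 genes that were lower and PCDHGC3, one of the most abundant members. They come from chr5:141338692-141338744, chr5:141359910-141359962, chr5:141382638-141382690, chr5:141387606-141387658, chr5:141397852-141397904 and chr5:141475869-141475921. The windows of PCDHGB4 and PCDHGB5 differed at 1 of 53 bases, and every other pair of these 6 windows differed at 19 to 30 bases.
PCDHGA2: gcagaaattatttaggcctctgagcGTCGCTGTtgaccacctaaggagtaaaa
PCDHGB2: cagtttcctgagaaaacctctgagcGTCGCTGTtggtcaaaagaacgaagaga
PCDHGA7: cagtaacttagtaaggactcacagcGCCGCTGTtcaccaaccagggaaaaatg
PCDHGB4: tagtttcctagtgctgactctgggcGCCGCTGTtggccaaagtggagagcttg
PCDHGB5: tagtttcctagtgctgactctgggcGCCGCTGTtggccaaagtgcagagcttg
PCDHGC3: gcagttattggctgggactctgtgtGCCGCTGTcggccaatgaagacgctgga

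How exon sharing limits the counts differed between the classes. In the GENCODE release 29 annotation, all 16 alpha genes and all 22 gamma genes had exon bases in common with other members, and 0 of 16 beta genes did. The shared part made up 27.6% to 64.4% of the exon bases of a gamma gene (median 43.9%), and a median of 46.6% in alpha. A read from the shared exons cannot be assigned to a gene of the class by its place alone, and how the authors counted such reads is not given in the sources used here. PCDHGC4 and PCDHGA12 each had 2181 shared bases, with 3 to 9 and 1341 to 1588 counts in a library. Shared reads were thus not counted in full for every gene that holds them. PCDHGB4 and PCDHGA8 shared the most gamma exon sequence, 4447 bases, and what this does to their counts was not tested. Exons of 8 alpha genes, 10 beta genes and 1 gamma gene (PCDHGB1) overlapped an exon on the other strand, and reads of the partners cannot be told apart there unless counting used strand. The beta genes resemble each other closely, and how reads that fit several of them were counted is not stated either.

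The 3 classes stood at very different levels in these fibroblasts. Levels between genes are compared as FPKM, the authors' values scaled to exon length and library size, averaged over the 6 libraries. PCDHGA12 and PCDHGC3 led the cluster with 13.5 and 11.3 FPKM. PCDHGA12 and PCDHGB4 each carry an older name as a fibroblast cadherin, and PCDHGC3 is a C-type gene, the kind that many neurons express in common. The PCDHGC3 protein also binds the Wnt regulator axin. PCDHGB4 (3.81 FPKM), PCDHGB5 (3.38 FPKM) and PCDHGA7 (3.28 FPKM) came next, close to one another, with ranges over the libraries of 3.29 to 4.49, 2.61 to 4.01 and 2.75 to 3.77 FPKM that overlapped. The highest beta genes were PCDHB2 (0.605 FPKM), PCDHB14 (0.530 FPKM) and PCDHB16 (0.427 FPKM), and their ranges also overlapped. The highest alpha genes, PCDHA3, PCDHA4 and PCDHA12, reached only 0.0667, 0.06 and 0.0533 FPKM. When the counts were divided by the exon bases that no other member shares, PCDHGA12, PCDHGC3 and PCDHGB4 remained the 3 highest, at 25, 18.9 and 10.7 FPKM. These values hold only if no read from a shared exon was counted, which is not known. In that case the deposited FPKM, scaled to the full exon length, are too low for alpha and gamma genes against beta genes.

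**Figure D1:**
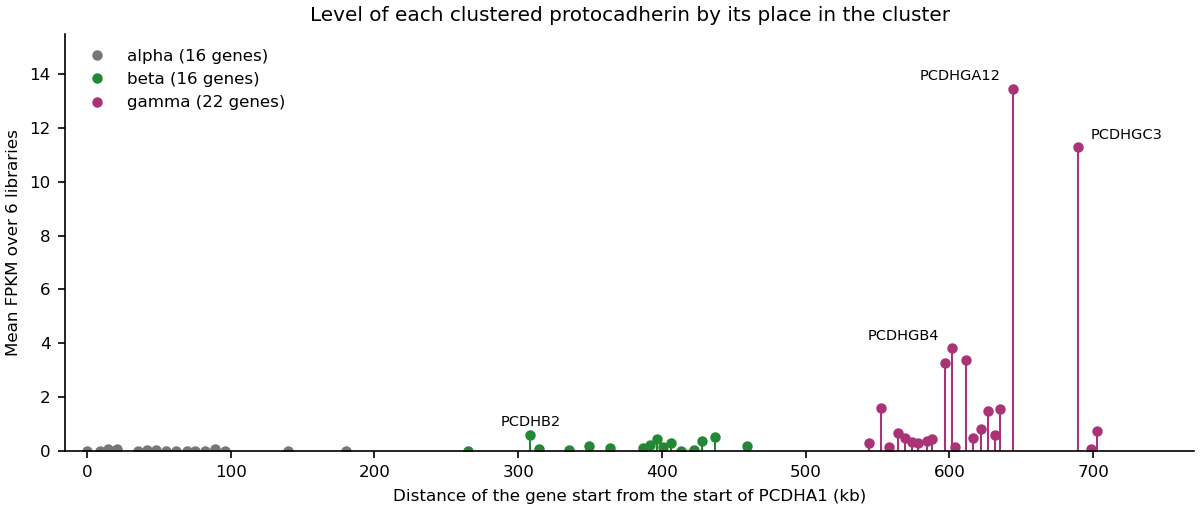
Mean deposited FPKM over the 6 libraries (vertical axis, linear) of the 54 clustered protocadherins against the distance of each gene's start from the start of PCDHA1 in kb (horizontal axis), coloured by class. The highest values lie at the far end of the cluster, PCDHGA12 at 13.5 and PCDHGC3 at 11.3 FPKM, and alpha genes lie near 0.

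With sauchinone, the summed beta level was lower and the make-up of the gamma class shifted, while the gamma sum changed little. Summed beta levels in CPM ( counts scaled to a fixed, TMM-adjusted library size) were 15, 17.5 and 16.2 across the UVB libraries (replicates 1 to 3 in order, here and below) and 8.80, 9.79 and 11.3 across the sauchinone libraries. The groups did not overlap, and the mean was 1.63-fold lower with sauchinone (16.2 ± 1.27 against 9.96 ± 1.26 CPM, mean ± SD, n = 3 in each group). Summed gamma levels were 253, 256 and 259 CPM without and 251, 234 and 246 CPM with sauchinone, a log2 ratio of -0.07. Every sauchinone library lay below every UVB library, by a margin smaller than the spread within the sauchinone group (256 ± 3.02 against 244 ± 8.85 CPM), and with total counts as the only scaling the log2 ratio was -0.03. Summed alpha levels overlapped, at 2.50, 2.50 and 2.91 CPM without and 2.12, 2.50 and 1.88 CPM with sauchinone. These sums were described, not tested. In bulk RNA, fewer cells of a type and less RNA per cell cannot be told apart.

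**Figure D2:**
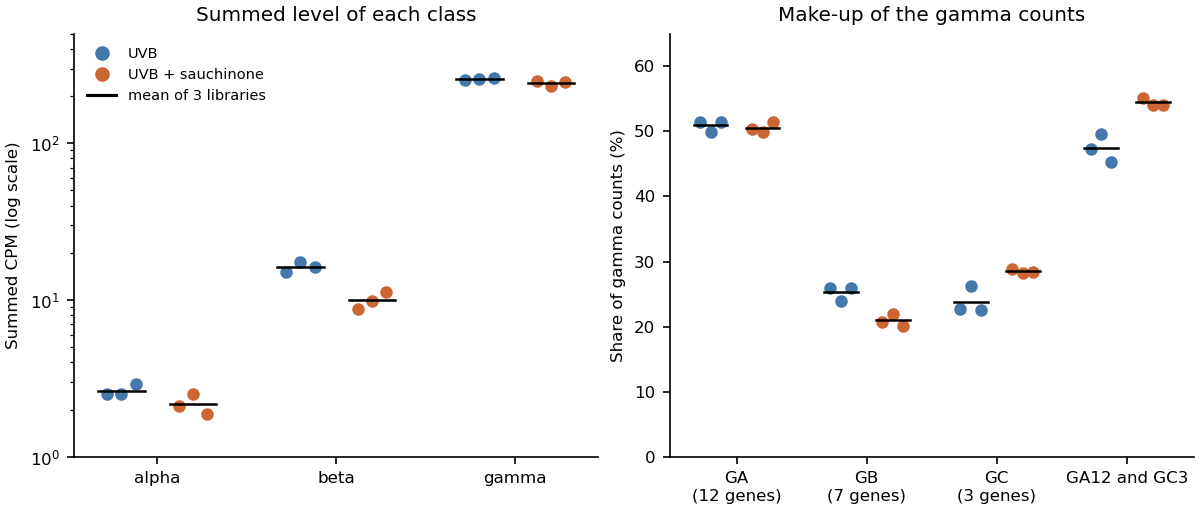
Left, summed CPM of the alpha, beta and gamma genes in each library on a log axis. Right, the share of all gamma counts (percent, linear axis) that came from the 12 PCDHGA genes, the 7 PCDHGB genes, the 3 PCDHGC genes and from PCDHGA12 and PCDHGC3 together; each point is 1 library and each line the mean of 3. The beta sums of the groups do not overlap, and the share of PCDHGA12 and PCDHGC3 rises from a mean of 47.4% to 54.4%.

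Of the 54 genes, 33 had enough counts to be tested, and edgeR's quasi-likelihood test (Benjamini-Hochberg adjusted p under 0.05 over all 15704 genes tested) called 1 higher and 10 lower with sauchinone. The background was high, as 49.6% of all tested genes were called, 24.7% higher and 24.9% lower. The median log2 fold change (UVB + sauchinone over UVB) was -0.32 over the 33 tested members and 0.0071 over all tested genes. By class the medians were -0.08 in alpha (2 of 16 genes tested), -0.71 in beta (10 of 16) and -0.28 in gamma (21 of 22). A gene was tested if at least 3 libraries reached 0.444 CPM, or 10 counts at the median library size. PCDHB5, PCDHB7, PCDHB8, PCDHB9, PCDHB10 and PCDHGA3 reached it in all 3 UVB libraries but in fewer sauchinone libraries, and PCDHA3 and PCDHB15 in more sauchinone than UVB libraries. PCDHB7 reached it in no sauchinone library, so at those sauchinone levels it had to be higher in UVB to be tested at all.

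**Figure D3:**
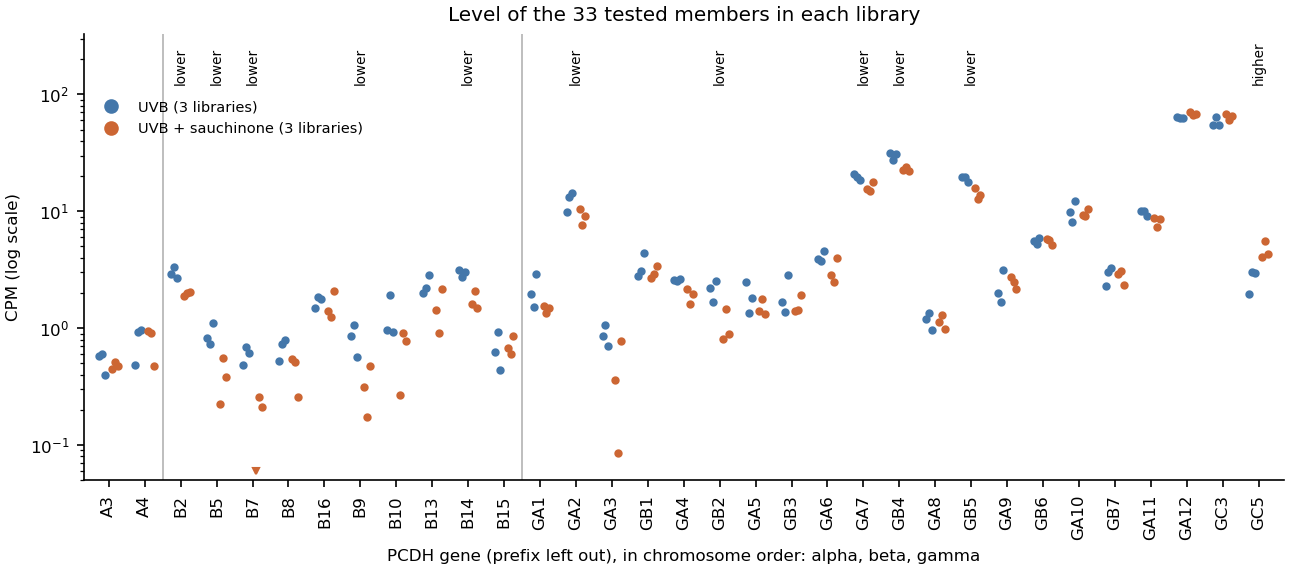
CPM in each of the 6 libraries (log axis) for the 33 tested genes in chromosome order, with the PCDH prefix left out and grey lines between the classes; "lower" and "higher" mark the 11 genes called by edgeR. A triangle at the bottom marks a count of 0 (PCDHB7, UVB + sauchinone replicate 1). PCDHGC5 is the only gene marked higher, and PCDHGA12 and PCDHGC3 stand above all others.

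In the beta class 5 of the 10 tested genes were lower with sauchinone in edgeR and 0 were higher, and 0 were higher in DESeq2 or at an unadjusted p under 0.05 as well. Over all tested genes 24.9% were called lower and 24.7% higher. Of the 5 lower beta genes, 3 reached the count filter in more UVB than sauchinone libraries. The beta share of lower genes therefore cannot be compared directly with that of all genes. On the CPM scale the groups did not overlap in 6 of the 10, all lower. Over all tested genes the groups did not overlap in 57.1%, and in 28.5% the sauchinone libraries were the lower ones. PCDHB5, PCDHB7, PCDHB9 and PCDHB10, among the 6, reached the count filter in more UVB than sauchinone libraries, which favours this direction. The 2 shares of genes without overlap therefore cannot be compared directly either. Of the 4 beta genes past the filter in all 6 libraries, PCDHB2 and PCDHB14 did not overlap, and PCDHB13 and PCDHB16 did. PCDHB14 had 65, 59 and 69 counts across the UVB libraries and 36, 48 and 35 counts across the sauchinone libraries. All its sauchinone libraries lay below all its UVB libraries, with a log2 fold change of -0.77 ± 0.24 (SE) and an edgeR adjusted p of 0.0099. It was the only beta gene called under each of the 16 alternative settings. PCDHB2 had 61, 72 and 61 counts in UVB and 42, 46 and 48 counts in UVB + sauchinone. Its groups did not overlap either, with a log2 fold change of -0.59 ± 0.23 (SE) and an edgeR adjusted p of 0.036. This call was lost under 8 of the 16 alternative settings, with adjusted p of 0.054 to 0.12: in DESeq2, with no filter on low counts, with the replicate block, and without any one library other than UVB replicate 3. PCDHB2 and PCDHB14 passed the count filter in all 6 libraries.

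The other 3 beta genes that were lower had few counts and reached the filter in more UVB than sauchinone libraries. PCDHB7 had 10, 15 and 14 counts in UVB and 0, 6 and 5 counts in UVB + sauchinone. Its log2 fold change of -1.87 ± 0.62 (SE, edgeR adjusted p = 0.016) was the largest among the 33 tested members, and the p was 0.075 without UVB + sauchinone replicate 1, the library with 0 counts. PCDHB9 had 18, 23 and 13 counts in UVB and 7, 4 and 11 counts in UVB + sauchinone, without overlap. Its log2 fold change was -1.36 ± 0.48 (SE, edgeR adjusted p = 0.022), and the p was 0.10 without UVB + sauchinone replicate 2, 0.081 without UVB replicate 2 and 0.055 without UVB + sauchinone replicate 1. PCDHB5 had 17, 16 and 25 counts in UVB and 5, 13 and 9 counts in UVB + sauchinone, again without overlap. Its log2 fold change was -1.17 ± 0.45 (SE, edgeR adjusted p = 0.034), and the call was lost under 6 of 15 alternative settings, with adjusted p of 0.053 to 0.14: in DESeq2, with no filter, and without UVB replicate 1 or 3 or UVB + sauchinone replicate 1 or 3. The count of beta genes called was 3 in DESeq2, where 47.7% of all genes were called, 3 without UVB replicate 2, 3 without UVB + sauchinone replicate 2 and 1 without UVB + sauchinone replicate 1.

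The remaining 5 tested beta genes did not pass. PCDHB10 had 20, 42 and 21 counts in UVB and 6, 21 and 18 counts in UVB + sauchinone, with a log2 fold change of -0.96 and an edgeR adjusted p of 0.067. PCDHB13 had 42, 48 and 65 counts against 32, 21 and 51, and its groups overlapped (log2 fold change -0.65, edgeR adjusted p = 0.076). PCDHB8, with 11, 16 and 18 counts against 12, 12 and 6, overlapped too (log2 fold change -0.65). PCDHB16, the third most abundant beta gene, had 31, 40 and 40 counts in UVB and 31, 29 and 49 counts in UVB + sauchinone. Its log2 fold change was -0.10 with a 95% interval of -0.71 to 0.50, which includes the change of PCDHB2. PCDHB15 (13, 20 and 10 against 15, 14 and 20 counts) was the only tested beta gene with a positive fold change, at 0.11. Across the scaling, filter and trend alternatives and with each library left out, the median of the tested beta genes stayed between -0.94 and -0.62. Of these 10 genes, 5 reached the count filter in more UVB than sauchinone libraries and 1 in more sauchinone libraries, which favours a negative median. The medians use only genes that passed the main filter, also in the run with no filter, so they do not test its part.

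The 6 beta genes that were not tested were PCDHB1, PCDHB3, PCDHB4, PCDHB6, PCDHB11 and PCDHB12. PCDHB1 had 0 counts in every library, which allows up to 0.144 CPM in a library (3 counts, counting error only). PCDHB6 had 11, 7 and 17 counts in UVB and 2, 4 and 5 in UVB + sauchinone, and PCDHB12 had 2, 5 and 9 against 0, 2 and 2. On the CPM scale neither gene's groups overlapped. In PCDHB12 this rests on library scaling, as UVB replicate 1 and UVB + sauchinone replicates 2 and 3 tied at 2 counts. PCDHB3, PCDHB4 and PCDHB11 had at most 9 counts in a library. With these genes left out of the sum, the beta log2 ratio was -0.66 in place of -0.71.

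In the gamma class 5 of the 21 tested genes were lower with sauchinone, 1 was higher and 15 did not pass. Over all tested genes 24.9% were lower and 24.7% higher. The gamma share of lower genes was thus close to that of all genes, and its share of higher genes was smaller. PCDHGB4 had 651, 588 and 695 counts across the UVB libraries and 500, 556 and 521 counts across the sauchinone libraries. The groups did not overlap, with a log2 fold change of -0.37 ± 0.10 (SE, edgeR adjusted p = 0.0034). PCDHGB5 had 411, 421 and 403 counts in UVB and 353, 294 and 319 in UVB + sauchinone. It did not overlap either, with a log2 fold change of -0.43 ± 0.12 (SE, edgeR adjusted p = 0.0039). PCDHGB2 had 46, 36 and 58 counts in UVB and 18, 34 and 21 in UVB + sauchinone. It showed the largest fall of the called gamma genes, 2.02-fold, with a log2 fold change of -1.01 ± 0.31 (SE, edgeR adjusted p = 0.0094). These 3 genes belong to the B subfamily of gamma, whose 7 genes all had negative fold changes, although PCDHGB1, PCDHGB3, PCDHGB6 and PCDHGB7, none of them called, turned positive with the span trend described below removed and without UVB replicate 3.

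The other 2 lower genes belong to the A subfamily. PCDHGA2 had 206, 289 and 325 counts in UVB and 233, 177 and 211 in UVB + sauchinone. Its groups overlapped, because UVB replicate 1 lay below UVB + sauchinone replicate 1, with a log2 fold change of -0.47 ± 0.15 (SE, edgeR adjusted p = 0.014). The p was 0.058 without UVB replicate 3 and 0.088 without UVB + sauchinone replicate 2. PCDHGA7 had 430, 422 and 423 counts in UVB and 344, 345 and 420 in UVB + sauchinone. On the CPM scale its groups did not overlap (18.6 to 20.7 against 14.9 to 18 CPM), with a log2 fold change of -0.28 ± 0.11 (SE, edgeR adjusted p = 0.042). It missed the threshold without UVB replicate 1 or 2, without UVB + sauchinone replicate 1 or 2, and with every gene of at least 1 count tested, with adjusted p of 0.058 to 0.16.

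PCDHGC5 was the only tested clustered protocadherin called higher. It had 41, 65 and 67 counts in UVB and 90, 130 and 100 in UVB + sauchinone, so that all 3 sauchinone libraries lay above all 3 UVB libraries. The log2 fold change was 0.81 ± 0.21 (SE, 1.75-fold, edgeR adjusted p = 0.0032), and the gene stayed called under each of the 16 alternative settings, at log2 fold changes of 0.64 to 0.91. PCDHGC5 is a C-type gene, known in neurons for a link with GABA receptors at synapses. Its C-type neighbour PCDHGC4, known for its role in neuron survival, had 6, 9 and 7 counts against 3, 7 and 7 and was not tested.

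The 2 most abundant genes of the cluster did not pass the test. PCDHGA12 had 1341, 1369 and 1416 counts in UVB and 1555, 1539 and 1588 in UVB + sauchinone. Its sauchinone libraries all lay above its UVB libraries, and the log2 fold change of 0.11 (95% interval -0.06 to 0.27, edgeR adjusted p = 0.29) was small. PCDHGC3 had 1148, 1380 and 1252 counts in UVB and 1508, 1392 and 1526 in UVB + sauchinone, with overlap. Its log2 fold change was 0.15 (95% interval -0.03 to 0.33, edgeR adjusted p = 0.17), and without UVB replicate 2, its highest UVB library, it was 0.22 with an adjusted p of 0.040.

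The other 13 tested gamma genes that did not pass had log2 fold changes from -1.10 (PCDHGA3) to 0.11 (PCDHGA9). PCDHGA3 had 18, 23 and 16 counts in UVB and 8, 2 and 18 in UVB + sauchinone, and its groups overlapped because of sauchinone replicate 3 (edgeR adjusted p = 0.082). PCDHGA4 and PCDHGA11 were lower in every sauchinone library on the CPM scale, with log2 fold changes of -0.44 and -0.25 and adjusted p of 0.13 and 0.15 in edgeR. PCDHGB6, PCDHGB7, PCDHGA8 and PCDHGA10 lay between -0.07 and -0.01.

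The make-up of the gamma class differed between the groups. PCDHGA12 and PCDHGC3 together gave 47.2%, 49.7% and 45.4% of all gamma counts across the UVB libraries and 55.1%, 54.1% and 54.1% across the sauchinone libraries. The groups did not overlap (47.4 ± 2.16% against 54.4 ± 0.61%, SD, n = 3). The other 20 gamma genes summed to 135 ± 6.49 CPM without and 111 ± 3.23 CPM with sauchinone, 1.21-fold lower. The 7 PCDHGB genes fell from 25.3% to 21% of gamma counts, or from 64.7 ± 3.24 to 51.0 ± 1.23 CPM. The 3 PCDHGC genes went from 23.8% to 28.5%, with PCDHGC3 the bulk of them, and the 12 PCDHGA genes held 50.9% and 50.6%. These shares were described, not tested, and were not computed again with the trends with genomic span or GC content described below removed. Neither PCDHGA12 nor PCDHGC3 was called, and with the GC trend removed their log2 fold changes were -0.064 and -0.013.

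**Figure D4:**
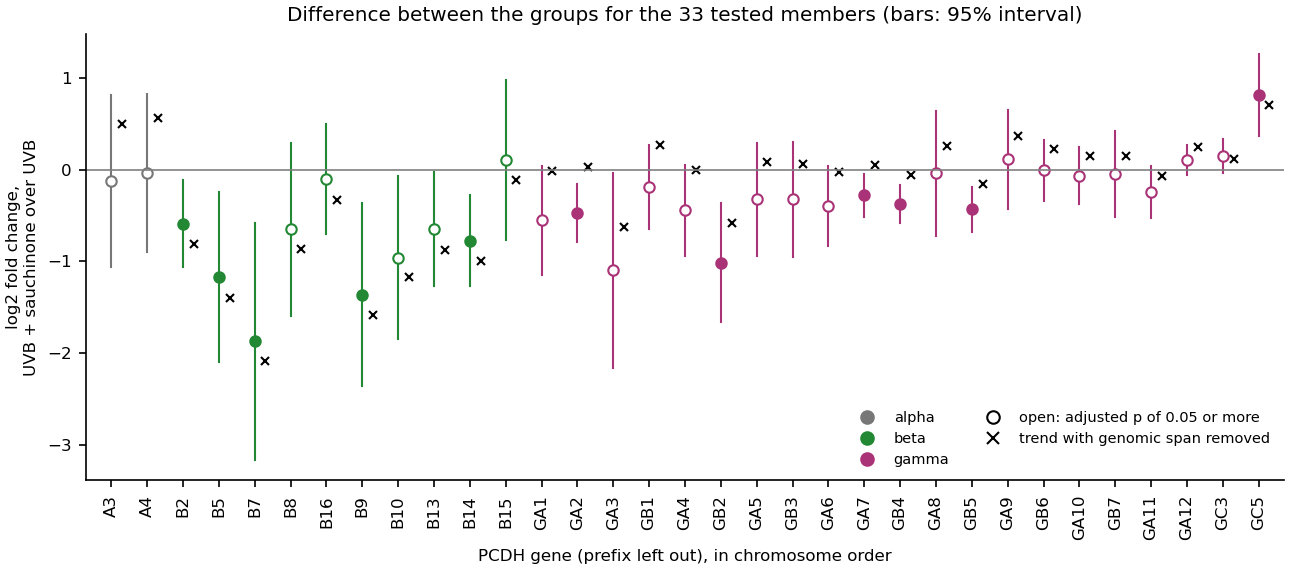
Log2 fold change (UVB + sauchinone over UVB, linear axis) of the 33 tested genes in chromosome order, with 95% intervals from edgeR; filled points have an adjusted p under 0.05, and open points do not. Crosses give the same value after a trend of the counts with genomic span was removed. Gamma values climb from left to right, PCDHGC5 is the highest at 0.81, and the crosses of most gamma genes lie closer to 0 than their points.

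Along the gamma class the fold change followed gene order. Over the 21 tested gamma genes, Pearson's r between the log2 fold change and the start position was 0.81 and Spearman's rho 0.82. These are correlations across genes, which share libraries and last exons and are not independent, and they are given as a description. All gamma genes end in the same last exon, so a gene further along the cluster also has a shorter span, and the correlation with the log10 span was -0.80. Position and span cannot be told apart within the class.

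Removing a trend of the counts with genomic span, fitted over all genes in each library, changed the gamma calls. The median of the tested gamma genes went from -0.28 to 0.06, 13 were positive and 8 negative, and the calls went from 5 lower and 1 higher to 0 lower (also at an unadjusted p under 0.05) and 2 higher. The 2 higher genes were PCDHGC5 (0.71) and PCDHGA12 (0.25, edgeR adjusted p = 0.011). PCDHGB4 was then at -0.06 and PCDHGB5 at -0.16, and PCDHGA2 and PCDHGA7 had turned to 0.03 and 0.05. PCDHGB2, at -0.58, no longer passed (edgeR adjusted p = 0.13). The correlation with start position was then r = 0.56 and rho = 0.45. In the beta class, whose tested genes span 2.75 to 5.06 kb, the same step raised the count from 5 to 7 lower genes, adding PCDHB10 and PCDHB13, and moved the median to -0.94.

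The alpha class was barely expressed, and edgeR called 0 of its 2 tested genes. None had an unadjusted p under 0.05, and DESeq2 and limma-voom called 0 as well. PCDHA3 had 12, 13 and 9 counts in UVB and 10, 12 and 11 in UVB + sauchinone, a log2 fold change of -0.12 with a 95% interval of -1.06 to 0.81. PCDHA4 had 10, 20 and 22 counts against 21, 21 and 11, a log2 fold change of -0.04 (95% interval -0.90 to 0.82). The groups overlapped in both genes, the intervals include a change of 1.5-fold either way, and with the span trend removed the values were 0.49 and 0.57. These 2 genes span 211 and 205 kb.

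The other 14 alpha genes had too few counts to be tested. PCDHA12 had the widest range of these, with 5, 12 and 7 counts in UVB and 0, 2 and 14 in UVB + sauchinone. PCDHA6 had 4 to 9 counts in every library. The C-type genes PCDHAC1 and PCDHAC2 had 0 to 4 counts. PCDHA1, PCDHA2, PCDHA8, PCDHA13 and PCDHA14 had 0 counts in all 6 libraries. This allows up to 0.144 CPM of counted reads in a library, except for PCDHA14. PCDHA1, PCDHA2, PCDHA8 and PCDHA13 share 51.2%, 56.6%, 52.3% and 53.5% of their exon bases. If shared reads were dropped, the bound covers only the rest of each gene. PCDHA14 had 0 exon bases of its own, so its count would then be 0 at any level. All 5 of these genes share exon bases with alpha genes that had counts.

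The genes around and within the cluster did not all move the same way. TAF7, a subunit of the transcription factor TFIID encoded between the beta and gamma genes on the other strand, had 200 ± 2.94 CPM without and 383 ± 56.7 CPM with sauchinone. It rose 1.92-fold (log2 fold change 0.94 ± 0.09 SE, edgeR adjusted p = 5.8e-09). DIAPH1, which encodes an actin-nucleating formin just past PCDHGC5, rose less, with a log2 fold change of 0.25 ± 0.07 (SE, edgeR adjusted p = 0.0062), or 0.47 with the span trend removed. ZMAT2, a splicing factor gene on the alpha side, had a log2 fold change of 0.11 and did not pass (edgeR adjusted p = 0.26). The 33 other genes that overlap the 727 kb from the first to the last member include 5 tested ones. Among them PCDHGB8P and PCDHGB9P, pseudogenes between the gamma genes, had log2 fold changes of 0.41 and 0.76 and did not pass.

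Genes that act on the cluster or with its proteins were read from lists chosen by their known roles. Over all tested genes 49.6% were called, 24.7% higher and 24.9% lower. Each count of list genes here and in the paragraphs below is to be read against these shares. Of 16 genes of promoter and enhancer architecture, all tested, 6 were higher and 8 lower, with a median log2 fold change of -0.27. CTCF rose by 0.40 and RAD21, the cohesin subunit that closes the ring, by 0.39 on the log2 scale. The cohesin subunit STAG1 fell by 1.30 and ESCO2, which acetylates cohesin, by 1.10. The partners of the cohesin loader moved apart, MAU2 at 0.51 and NIPBL at -0.56. With the span trend removed, STAG1 was at -0.29, NIPBL at 0.0025 and the cohesin deacetylase HDAC8 at 0.0038, from -0.71. RAD21 was at 0.67 with the exonic size trend removed and MAU2 at 0.33 with a GC trend removed.

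Of 20 genes of silencing and DNA methylation, 4 were higher and 6 lower (median -0.16). TRIM28, the corepressor that recruits histone methylation, rose from 107 ± 13.4 to 214 ± 10.7 CPM, a log2 fold change of 1.00 ± 0.09 (SE, edgeR adjusted p = 2.6e-09). TET3, an enzyme that oxidises methylated DNA, had a log2 fold change of 0.66, and its relative TET1 one of -1.50. SMCHD1, a silencing protein known to act on this cluster, fell by 0.41 on the log2 scale, and was at -0.00027 with the span trend removed and at 0.02 with a trend with exonic size removed. ATF7IP and CBX5, which act with repressive histone methylation, fell by 0.55 and 0.36 on the log2 scale. Neither call held throughout, as ATF7IP was at -0.19 with the span trend removed (edgeR adjusted p = 0.064) and CBX5 at -0.078 with the exonic size trend removed (0.38).

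Of 8 genes that shed and cleave protocadherins, 2 were higher, 1 lower and 5 did not pass (median 0.07). ADAM10, the protease that sheds the outer part, fell by 0.70 on the log2 scale, and was at -0.24 with the span trend removed. APH1A, a subunit of the gamma-secretase that then cuts within the membrane, rose by 0.23, a call lost under 10 of the 16 alternative settings. Of 20 cytoplasmic partners, 3 were higher and 9 lower (median -0.20). PRKCA, a protein kinase C gene, fell most, by 1.88 on the log2 scale. PTK2B, one of the focal adhesion kinases that protocadherins inhibit, fell by 1.17. With the span trend removed PRKCA was at -0.78 and PTK2B at -0.77. Its relative PTK2 was at -0.61 and turned to 0.29 with the span trend removed. AXIN1, the axin that PCDHGC3 binds, rose by 0.70, or 0.41 with the GC trend removed. MARCKS and CYFIP1, which link membranes to actin, fell by 0.48 and 0.44, and CYFIP1 was at -0.17 with the span trend removed and no longer passed (edgeR adjusted p = 0.069). The kinase gene FYN was at -0.18 and did not pass (edgeR adjusted p = 0.072), and was at 0.44 with the span trend removed.

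Other cadherin relatives were compared as families outside the cluster. Of 16 non-clustered protocadherins and relatives 6 were tested, and 2 were higher, PCDH1 (log2 fold change 1.79) and PCDH9 (1.69), and 2 lower, PCDH18 (-0.89) and CDHR3 (-0.67). With the span trend removed PCDH9 was at 3.10, and CDHR3 was at -0.22 and no longer passed (edgeR adjusted p = 0.28). Of 17 FAT, DCHS, CELSR and classical cadherins 13 were tested, and 8 were lower and 0 higher in edgeR (median -0.52), with 0 higher at an unadjusted p under 0.05 and in DESeq2 too. With the span trend removed, 3 of its 6 called genes were higher, and with the exonic size trend removed 2 of 8. CDH2, the N-cadherin of fibroblasts and neurons, fell by 0.85, and FAT4, a giant cadherin of tissue polarity, by 1.07. CDH6 was at -0.56. With the span trend removed, FAT4 was at -0.56, and CDH2 and CDH6 were at -0.14 and -0.20 and no longer passed (edgeR adjusted p = 0.093 and 0.090). CDH11, CDH13 and FAT1 were at -0.31, -0.61 and -0.24, and all 3 turned positive with the span trend removed, at 0.22, 0.93 and 0.13.

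Total counts per library ran from 20984851 to 23076388, and all 6 libraries carry the same batch label. The labelled cell type was checked against markers. All 8 fibroblast markers were expressed, with a summed level of 17276 to 19100 CPM without and 12698 to 12893 CPM with sauchinone, and 7 of the 8 were lower, so the fibroblast markers moved in the same direction as the beta genes. COL1A1, a collagen gene, had 3212 CPM without and 1797 CPM with sauchinone. Of 8 neuron markers 5 were tested, with a summed level over the list of 23 to 26.5 CPM without and 28 to 29.3 CPM with sauchinone, of which TUBB3 was higher, SYT1, SNAP25, MAP2 and NEFL lower, and ELAVL3 at 0. S100B (glia), DCT (melanocyte), KRT5 and KRT1 (keratinocyte), CDH5 and KDR (endothelium) and CD3E (leukocyte) were at 0 in all libraries. Other genes of these lists were not. Of 5 keratinocyte markers 1 was tested and was lower. That list summed to 626 to 680 CPM without and 462 to 524 CPM with sauchinone. The other 4 markers had too few counts to be tested, so the sum came mainly from 1 gene. The glia, melanocyte, endothelium and leukocyte lists each summed to between 0.361 and 2.45 CPM in a library. Of their genes, 3 glia markers were tested (1 higher, 1 lower), 2 melanocyte markers (1 lower) and 1 leukocyte marker (not called). The part of these marker shifts in the protocadherin results was not tested.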

How the data were processed

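RNA from 6 libraries was sequenced, per the labels' protocols, as paired-end reads after poly(A) selection or removal of ribosomal RNA (which of these is not said) with a strand-marking kit. The authors deposited a raw count for each gene and library. They also deposited FPKM values, which equal count over exonic size and total count to within rounding, and exonic sizes and coordinates. Per the submitters' processing notes, the build was GRCh38. Not given in the sources used here are the aligner, the counter, its annotation and whether it used strand.

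The test ran on these counts in edgeR 4.0.16 under R 4.3.3 (filterByExpr, TMM, quasi-likelihood test of UVB + sauchinone against UVB, no covariates, two-sided, Benjamini-Hochberg over 15704 genes, threshold 0.05). It was checked on simulated data. Alternatives were DESeq2 1.42.0, limma-voom (limma 3.58.1), other scalings and filters, a replicate block, omission of each library, and per-library trends with genomic span or exonic size removed. A trend with transcript GC content (a value for 98.2% of tested genes) was added after seeing the data. Same-numbered libraries did not deviate together (correlations of 0.0072, -0.078 and -0.031).

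Members and gene lists were chosen with earlier results of these data known. Values in every library were given for members with an adjusted p under 0.05 and for the 3 highest by FPKM in each class, and list genes were at most the 6 with the smallest p, plus CTCF, RAD21, SMCHD1, ADAM10, FYN and PTK2. A gene that this rule would name is not reported here. Exon sharing came from GENCODE release 29 on GRCh38, and promoters from RefSeq (GRCh38.p14).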

Additional observations from a re-analysis of the deposited data

How the results depend on the processing

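Over the alternatives, the count of all genes called stayed between 6683 and 8233, and that of alpha members at 0. The count of beta members called (5) was 3 in DESeq2, 2 with at least 1 CPM required in 3 libraries, where fewer beta genes were tested, and 1 to 5 with a library left out. The count of gamma members (6) was 2 with the span trend removed and 10 with the GC trend removed (1 higher, 9 lower), and 4 to 8 with a library left out. The summed log2 ratios moved to -0.069 in alpha over tested members only and to -0.027 in gamma with total-count scaling, and with a library left out ran from -0.40 to -0.19 in alpha, from -0.81 to -0.62 in beta and from -0.09 to -0.04 in gamma. Where no construction above explains a move, the cause was not tested. With the replicate number as a block, which the labels do not tie to shared cultures, beta calls were 4 (PCDHB2 lost, adjusted p = 0.054) and gamma calls 5 (PCDHGA7 lost, 0.067) in edgeR.

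Signs turned with the span trend removed for PCDHA3 (0.49), PCDHA4 (0.57), PCDHGA2 (0.030), PCDHGA7 (0.050), CDH11 (0.22), CDH13 (0.93), FAT1 (0.13), PTK2 (0.29), FYN (0.44), NIPBL (0.0025), HDAC8 (0.0038) and ZMAT2 (-0.10). They turned with the trend with exonic size removed for PCDHA4 (0.21), FAT1 (0.066), SMCHD1 (0.021) and ZMAT2 (-0.034). With the GC trend removed they turned for PCDHA4 (0.15), PCDHGA12 (-0.064) and PCDHGC3 (-0.013). With a library left out, PCDHA4 ran from -0.29 to 0.22 (0.080 without UVB replicate 2, 0.13 without UVB replicate 3, 0.22 without UVB + sauchinone replicate 3), and PCDHB16 ran from -0.36 to 0.043, the latter without UVB + sauchinone replicate 2. Other uncalled members also turned: with the span trend removed PCDHB15, PCDHGA5, PCDHGA8, PCDHGA10, PCDHGB1, PCDHGB3, PCDHGB6 and PCDHGB7, with the GC trend removed PCDHGA8, PCDHGA9 and PCDHGB6, with the exonic size trend removed PCDHGA8 and PCDHGB6, and several of these with a library left out. The signs of the called beta genes and of PCDHGC5 did not turn in any alternative run. Alpha and beta genes had fewer than 100 counts in a library, and the standard errors of their log2 fold changes ran from 0.23 to 0.62, against 0.080 to 0.51 in gamma. No pseudocount alternative applied to counts.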
